A study of Mus musculus with 6 samples.

Results

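The miR-17-92 cluster was examined in LLC1 cells, an established mouse line of Lewis lung carcinoma origin, grown in 2D or in lr-ECM 3D culture, the latter meaning growth within an extracellular matrix rich in laminin. Its members were taken by name. They were the mouse miRNA entries of the array whose names start with mmu-miR-17-, mmu-miR-18a, mmu-miR-19a, mmu-miR-19b, mmu-miR-20a or mmu-miR-92a. This gave 10 mature arms of 566 mouse miRNAs measured. Among them, mmu-miR-92a-2-5p is encoded on chromosome X, outside the cluster on chromosome 14. Cells of the 2D group grew in DMEM with serum. Cells of the lr-ECM 3D group grew in the same medium with 0.5 mg/ml of the matrix above agarose. Per the paper, plate format also differed, and cells were seeded per area in 2D and per well in lr-ECM 3D culture. Both groups carry no other treatment and were harvested after 48 h, with 3 biological replicates per group and 1 array of 1 colour per replicate. The replicates are cultures of a single cell line, so their spread holds no difference between animals.

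MicroRNAs of this cluster are cut from one primary transcript that folds into a row of hairpins. From each hairpin 1 arm, the guide, is usually loaded into an Argonaute protein and represses mRNAs that pair with its seed, while the opposite arm, the passenger, is mostly degraded. The cluster is known as an oncomiR: MYC and E2F proteins drive its transcription, it is amplified in some lymphomas and lung cancers, and its targets include mRNAs of Bcl2l11 (Bim) and Cdkn1a (p21). In the RefSeq annotation of the mouse assembly GRCm38.p6 the 6 hairpins Mir17, Mir18, Mir19a, Mir20a, Mir19b-1 and Mir92-1 lie in that order on the plus strand at chr14:115043671-115044506, a stretch of 836 bases.

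The guide arms fall into 4 seed groups, and their sequences are shown because members that share a seed share most predicted targets and differ by few bases. Sequences are from RefSeq, written 5′ to 3′ with the seed, bases 2 to 8, in capitals; 9 of the 10 arms matched an entry there by name, and the one without a match was mmu-miR-19a-5p.
miR-17-5p: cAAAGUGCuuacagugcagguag
miR-20a-5p: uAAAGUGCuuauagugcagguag
miR-18a-5p: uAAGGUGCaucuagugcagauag
miR-19a-3p: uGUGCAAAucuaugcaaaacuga
miR-19b-3p: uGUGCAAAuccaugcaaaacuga
miR-92a-3p: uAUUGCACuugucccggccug
miR-17-3p: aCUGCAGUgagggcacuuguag
Aligned from the 5′ end without gaps, miR-19a-3p and miR-19b-3p are identical at 22 of 23 positions, and miR-17-5p and miR-20a-5p at 21 of 23. miR-18a-5p has a seed of its own in this set and matches miR-20a-5p at 19 of 23 positions. miR-19b-3p and miR-92a-3p are each encoded a further time on chromosome X, in Mir19b-2 and Mir92-2, with the same mature sequence, so their signals cannot be assigned to the chromosome 14 copies alone. The member miR-92a-2-5p is an arm of Mir92-2 on chromosome X. Hybridisation of a probe to a near-identical arm was not tested.

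The hairpin of Mir17, at chr14:115043671-115043754, is shown because its passenger arm, miR-17-3p, was well above background here, unlike the passenger arms measured from Mir18, Mir19a and Mir20a; passenger arms of Mir19b-1 and Mir92-1 were not among the members, and capitals mark miR-17-5p and then miR-17-3p.
Mir17: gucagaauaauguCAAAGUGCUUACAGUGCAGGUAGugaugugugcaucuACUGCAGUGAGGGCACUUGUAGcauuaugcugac

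Signals are spot intensities, scaled so that every array had the same mean over miRNA probes, and are given as log2 values of linear units. The 2D arrays were uneven: before scaling, 2D replicate 2 had a mean signal of 5.03 linear units, against 21.4 to 49.9 on the other 5 arrays, and it was multiplied by 4.43, so results are given with and without it. All 2D arrays lay on a slide and scan day of their own, as did all lr-ECM 3D arrays, so culture condition, slide and scan day cannot be told apart. Of 21 listed markers of other cell types, 18 were found on the array under those names. Of these 18, 2 were well above background on any array, miR-143-3p and miR-206-3p. The listed blood and immune markers miR-142-3p and miR-142-5p were not found under those names. Entries named mmu-miR-142a-3p and mmu-miR-142a-5p were not counted. They were well above background on 6 and 4 arrays, with mean log2 signals of 8.13 and 4.56. The part of any of these miRNAs in the results was not tested. The summed scaled signal of the 18 markers was 48.7 to 211 linear units on the 2D arrays and 28.5 to 29.5 on the lr-ECM 3D arrays. All but 2 of the 18 were below background on every array. The sums therefore include background signal multiplied by each array's factor, and the difference between groups cannot be read as one in cell types. Among the 18 markers were 6 epithelial ones, of the miR-200 family and miR-205. Of these, 0 were well above background, although LLC1 is labelled as a carcinoma line. Because fewer cells and less RNA per cell are not separable in bulk RNA, values refer to shares of a fixed RNA input of 100 ng.

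Of the 6 guide arms of the cluster, 5 were found under their current names, and all 5 were well above background on every one of the 6 arrays. Nothing on the array carried the exact name mmu-miR-17-5p. An entry named mmu-miR-17_v17.0 was present, but the sources used here do not give its relation to the current arm names, so it was kept apart from the members. Of the 5 other arms, miR-17-3p was well above background on 2 of 3 2D arrays and 3 of 3 lr-ECM 3D arrays, whereas miR-18a-3p, miR-19a-5p, miR-20a-3p and miR-92a-2-5p were above it on 0 arrays. The 16 probes of these 4 arms gave raw intensities between -9.21 and 21.4 linear units, and 44 of 96 values were negative, so no fold is given for them. Per array, 6, 5 and 6 of the 10 arms were above background in 2D and 6, 6 and 6 in lr-ECM 3D culture, a difference of 0.333 arms (exact two-sided permutation test, p = 1; with 3 arrays a group no p under 0.1 is possible). The missing arm in 2D was miR-17-3p on replicate 2, the array with the lowest signal.

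No guide arm passed the test between the culture conditions. Limma was run with Benjamini-Hochberg adjustment over 120 tested miRNAs. Of the 6 tested arms, 0 passed an adjusted p under 0.05 with a change of at least 2-fold. An unadjusted p under 0.05 was found for 0 of these 6, against 29 of the 120. With the 75th percentile of probes well above background on all arrays the members' count was 2. These were miR-18a-5p and miR-19a-3p, both higher in lr-ECM 3D culture (limma, adjusted p = 0.154 and 0.090). It was 1, miR-17-3p, with the 75th percentile of all probes, with quantile normalization and without 2D replicate 2. The methods' t-test called 0 of the 6 tested arms, both with Benjamini-Hochberg adjustment and without it. Over all 120 tested miRNAs it called 12 with adjustment and 17 without. The paper lists another member, miR-19a-5p, as down-regulated in lr-ECM 3D culture. Here that arm was below background on every array and was not tested. Over all tested miRNAs 14 were called, 13 higher and 1 lower in lr-ECM 3D culture, which is 11.7%. The 5 guide arms had log2 changes from -0.21 to -0.03, with a median of -0.16, beside a median of -0.11 over all 120 tested miRNAs.

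mmu-miR-19b-3p, considered a main oncogenic member of the cluster, had log2 signals of 9.33, 9.57 and 9.46 on 2D replicates 1, 2 and 3, against 9.12, 9.31 and 9.30 in lr-ECM 3D culture. All lr-ECM 3D values lay below all 2D values, by 0.02 at the closest pair of arrays. The means were 9.45 ± 0.12 and 9.24 ± 0.11 (SD, n = 3), a log2 change of -0.21 with a 95% interval of -0.53 to 0.11 (limma, adjusted p = 0.333). Groups that did not overlap, with lr-ECM 3D lower, occurred in 22.5% of all tested miRNAs and in 2 of the 6 tested arms; in either direction it was 42.5% of all tested miRNAs.

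mmu-miR-19a-3p, which shares the miR-19b-3p seed, gave 7.33, 7.62 and 7.42 in 2D and 7.37, 7.51 and 7.40 in lr-ECM 3D culture. The ranges overlapped almost fully. The log2 change was -0.03, with a 95% interval of -0.35 to 0.30 (limma, adjusted p = 0.890).

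mmu-miR-20a-5p, a regulator of E2F1 mRNA that carries the miR-17 seed, gave 8.81, 9.37 and 9.01 in 2D and 8.77, 8.93 and 8.92 in lr-ECM 3D culture. Here 2D replicate 2 stood above the other 5 arrays, and the groups overlapped. The log2 change was -0.19, with a 95% interval of -0.64 to 0.26 (limma, adjusted p = 0.500), and without that array it was -0.03.

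mmu-miR-18a-5p, which has been linked to repression of connective tissue growth factor, gave 7.20, 7.34 and 7.16 in 2D and 7.12, 7.24 and 7.24 in lr-ECM 3D culture. These 6 values spanned a narrow band and the groups overlapped. The log2 change was -0.03, with a 95% interval of -0.33 to 0.26 (limma, adjusted p = 0.844).

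mmu-miR-92a-3p, the last arm of the transcript and a regulator of Itga5 in endothelium, gave 8.50, 8.88 and 8.61 in 2D and 8.30, 8.61 and 8.59 in lr-ECM 3D culture. Again the groups overlapped, and the lowest value was lr-ECM 3D replicate 1. The log2 change was -0.16, with a 95% interval of -0.57 to 0.24 (limma, adjusted p = 0.516), and -0.06 without 2D replicate 2.

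**Figure D1:**
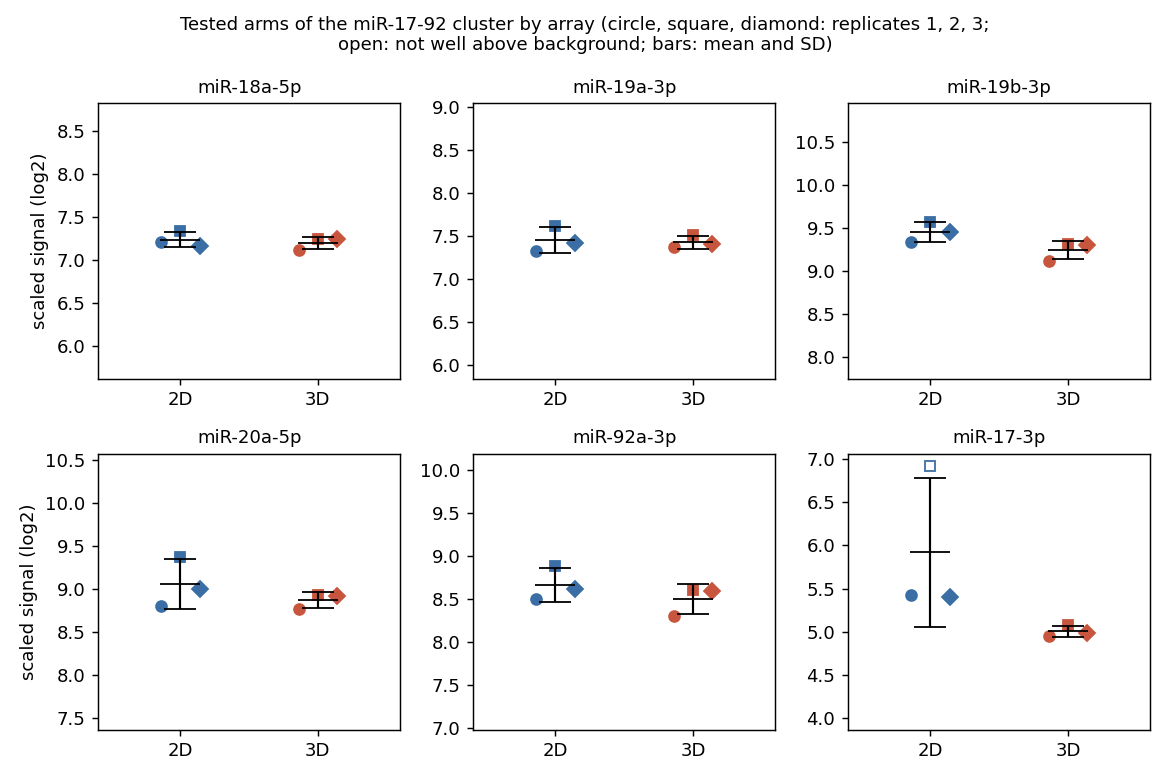
Scaled signal (log2, vertical axis, the same height of scale in each panel) of the 6 tested arms on each array, with 2D in blue and lr-ECM 3D in red; symbols mark replicates 1, 2 and 3, an open symbol an array where the arm was not well above background, and black bars the mean and SD (n = 3). The guide arms sit at similar values in both conditions, 2D replicate 2 (square) is the highest 2D value in every panel, and for miR-17-3p it stands at 6.92 against 5.40 and 5.43.

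In all 5 guide arms the highest of the 6 values came from 2D replicate 2. Without it the 5 changes ran from -0.15 for miR-19b-3p to 0.05 for miR-19a-3p, and their median was -0.03 in place of -0.16. All 5 guide arms had a 95% interval of the log2 change inside -1 to 1, so changes of 2-fold or more lay outside the interval for each. This was the case for 62 of 120 tested miRNAs (51.7%), and for 35 of the 48 well above background on all 6 arrays. That bound rested on the processing: it held for 5 of 5 guide arms with the 75th percentile of probes well above background on all arrays and with quantile normalization, for 4 with the total gene signal, and for 0 with the 75th percentile of all probes, no scaling, normexp or the deposited log2 values. The second probe that the array carries for each guide arm gave differences of -0.03 for miR-18a-5p, -0.07 for miR-19a-3p, -0.25 for miR-19b-3p, -0.21 for miR-20a-5p and -0.17 for miR-92a-3p, close to those of the probes reported.

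mmu-miR-17-3p was the arm with the largest difference and the widest interval. It is the passenger strand of miR-17 and has mRNA targets of its own. Its log2 signals were 5.43, 6.92 and 5.40 in 2D and 4.95, 5.07 and 4.98 in lr-ECM 3D culture. The groups did not overlap, with lr-ECM 3D lower, and the 2D mean was carried upwards by replicate 2. There the arm was not well above background: its raw intensity was 27.4 linear units, less than the 41.4 and 76.8 of the other 2D arrays, before multiplication by 4.43. The log2 change was -0.92, with a 95% interval of -2.02 to 0.18 (limma, adjusted p = 0.260).

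Without 2D replicate 2, the change of miR-17-3p was -0.42 (limma, adjusted p = 0.0176), which passes the p threshold and not the 2-fold one. Under quantile normalization it was -1.43 (limma, adjusted p = 0.0182), the only setting tried in which an arm of the cluster was called. With all arrays kept it was -0.36 with the total gene signal, -0.11 with normexp, -0.06 on the deposited log2 values and 0.44 without scaling, so its size moved with the processing as well as with 2D replicate 2.

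**Figure D2:**
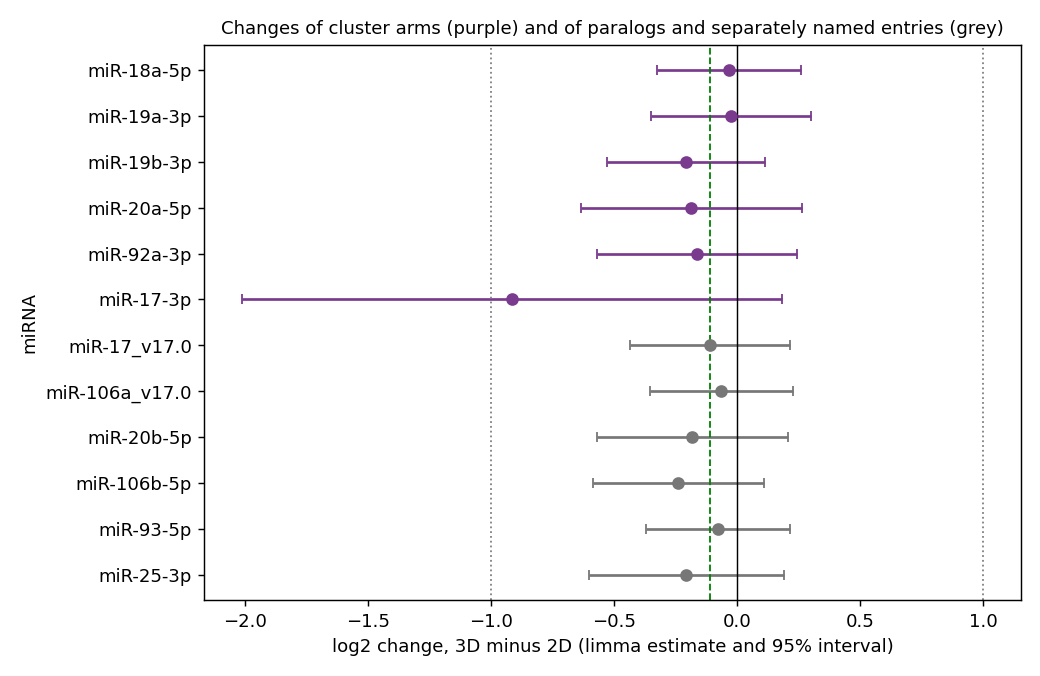
Log2 change from 2D to lr-ECM 3D culture (horizontal axis) with its 95% interval from limma for the 6 tested cluster arms (purple) and for related arms and separately named entries (grey); the dashed green line is the median of all tested miRNAs, -0.11, and dotted lines mark a 2-fold change either way. Every interval crosses 0, and only that of miR-17-3p reaches past -1.

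Changes of the guide arms were also compared within arrays, where scaling cancels; for miR-19b-3p and miR-92a-3p the signal may include the chromosome X copies. The difference between the log2 signals of a pair of guide arms was taken on each array and compared between conditions for all 10 pairs. The largest was between miR-19a-3p and miR-19b-3p: the first lay 2.00 ± 0.04 below the second in 2D and 1.82 ± 0.07 below it in lr-ECM 3D culture (SD, n = 3, log2, 1 probe each, so the gap itself is not a ratio of abundances). That is a difference of 0.18 in their changes, with no overlap of the arrays (exact two-sided permutation test, p = 0.1, the smallest possible; 0.5 after Benjamini-Hochberg adjustment over 10 pairs). The pair of miR-18a-5p and miR-19b-3p behaved likewise, with a difference of 0.18 between their changes and the same p. The changes of the other 8 pairs differed by at most 0.16 in size and their arrays overlapped. From the lowest to the highest, the 5 changes spanned 0.18 on the log2 scale.

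The sign of the guide-arm changes depended on the scaling. Their position among tested miRNAs stayed nearly the same only where a single factor per array was changed. With arrays set to the 75th percentile of the probes well above background on all arrays, the 5 changes were 0.11 to 0.29 and the median of all tested miRNAs was 0.21. Without scaling they were 1.15 to 1.33 around a median of 1.24, and on the deposited log2 values 0.64 to 0.83 around 0.76. In each of these settings, as in the reported one, miR-18a-5p and miR-19a-3p lay above the median of tested miRNAs and the other 3 guide arms below it, by 0.13 or less in size. A single factor per array leaves such distances nearly fixed, so these settings are not separate evidence.

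Under the settings that act on single probes the distances moved. With quantile normalization the guide arms lay 0.07 to 0.22 above the median of tested miRNAs, with normexp background correction 0.14 to 0.28 above it, and with the total gene signal 0.29 to 0.68 below it. Against the 48 miRNAs detected on each of the 6 arrays, whose median log2 change was -0.27, the 5 guide arms lay 0.06 to 0.25 higher.

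**Figure D3:**
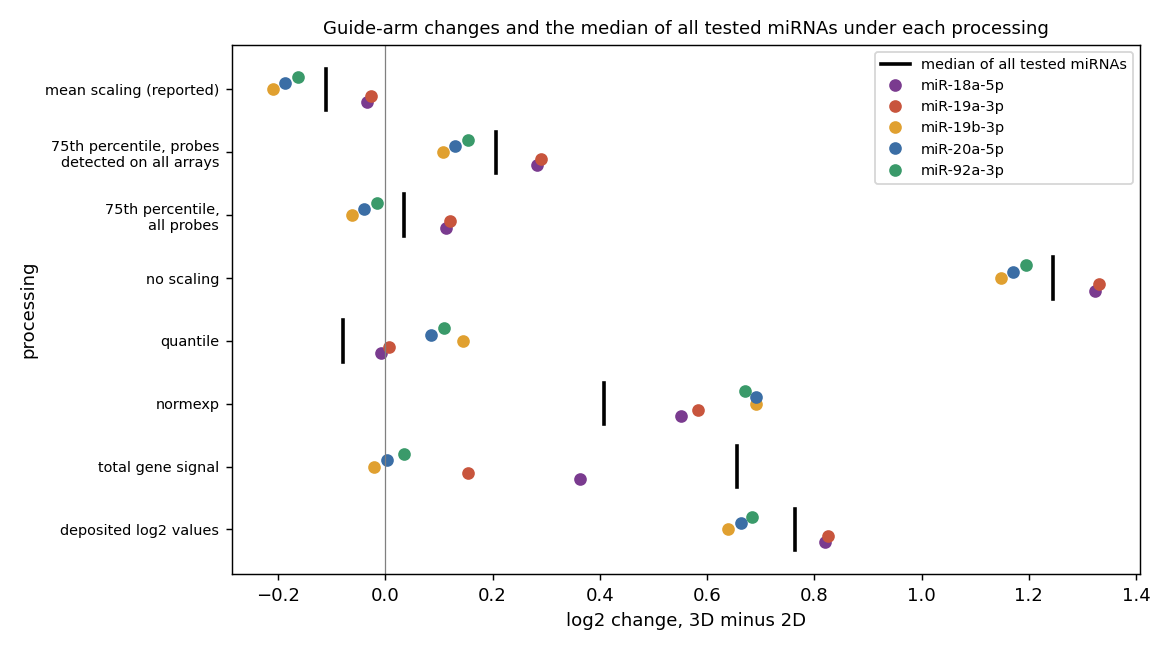
Log2 change from 2D to lr-ECM 3D culture (horizontal axis) of the 5 guide arms (coloured points) and the median over all tested miRNAs (black bars) under 8 ways of processing the same arrays (vertical axis). The points move with the black bar from -0.21 in the reported scaling to 1.33 without scaling, and part from it most under the total gene signal.

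The 38 tested miRNAs with a mean log2 signal over the 6 arrays of at least 7.22, the mean of the guide arm miR-18a-5p, had changes from -0.86 to 0.46 with a median of -0.24. The 14 called miRNAs had means over the 6 arrays of 4.72 or less, a value that the change itself sets, since the 13 called higher had 2D means of 1.50 or less. On the lr-ECM 3D arrays alone these 13 had mean log2 signals of 4.46 to 7.85, a range that includes the 7.20 of miR-18a-5p.

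**Figure D4:**
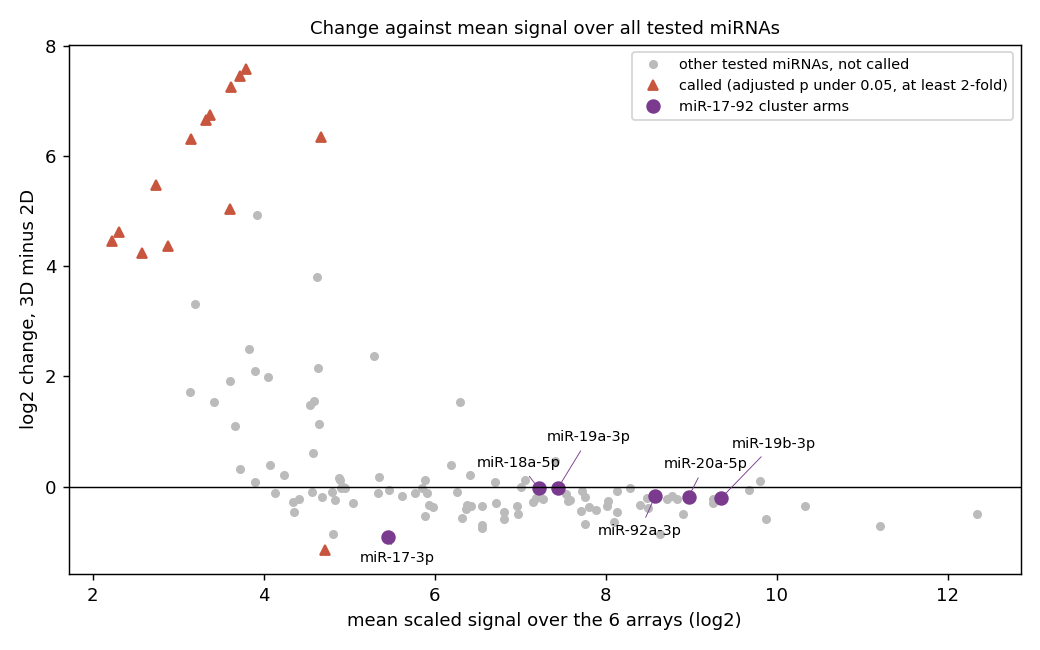
Log2 change from 2D to lr-ECM 3D culture (vertical axis) against the mean scaled log2 signal over the 6 arrays (horizontal axis) for the 120 tested miRNAs, with called miRNAs as red triangles and the cluster arms in purple. The 5 guide arms lie at mean signals of 7.22 and above with changes near 0, while the 14 called miRNAs lie at 4.72 and below, a mean that low 2D values pull down.

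The paralogous clusters, miR-106a-363 on chromosome X and miR-106b-25 on chromosome 5, share seeds with it; the arms of the second hold the miR-17 and miR-92 seeds and not those of miR-18 and miR-19. Of 18 arms listed for them and for miR-32 and miR-92b, 11 were on the array under those names and 4 were tested; their guide sequences are shown for comparison with those above.
miR-20b-5p: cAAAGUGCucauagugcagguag
miR-106b-5p: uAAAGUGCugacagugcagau
miR-93-5p: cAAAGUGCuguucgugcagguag
miR-25-3p: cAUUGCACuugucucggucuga
0 of these 4 were called by limma (11.7% of all tested miRNAs), 0 had an unadjusted p under 0.05 (29 of 120), and all 4 log2 changes lay below 0, as did 76 of 120. The sign followed the scaling: 0 of the 4 lay below 0 with the 75th percentile of probes well above background on all arrays, no scaling, normexp or the deposited values, 3 with the 75th percentile of all probes or quantile normalization, and 2 with the total gene signal. miR-106b-5p, which like miR-17-5p targets Cdkn1a, gave 7.54, 7.89 and 7.68 in 2D and 7.36, 7.51 and 7.51 in lr-ECM 3D culture, without overlap; its log2 change was -0.24, with a 95% interval of -0.59 to 0.11 (adjusted p = 0.319). The changes of miR-93-5p, miR-20b-5p and miR-25-3p were -0.08, -0.18 and -0.21, with overlapping groups. All 4 intervals lay inside a 2-fold change, as did those of 62 of 120 tested miRNAs; with the 75th percentile of all probes, no scaling, normexp or the deposited values 0 of the 4 did. miR-18b-5p, miR-20b-3p, miR-363-3p, miR-106b-3p, miR-93-3p, miR-32-5p and miR-92b-3p were not well above background on any array and were not tested. Of these, the paper lists miR-20b-3p as down-regulated in lr-ECM 3D culture.

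The separately named mmu-miR-17_v17.0 gave log2 signals of 5.84, 5.68 and 5.95 in 2D and 5.80, 5.73 and 5.60 in lr-ECM 3D culture, and was above background on all arrays but 2D replicate 2. The groups overlapped, with a log2 change of -0.11 and a 95% interval of -0.44 to 0.21 (limma, adjusted p = 0.572). Its second probe differed by -0.09. mmu-miR-106a_v17.0 changed as little, by -0.07, although with the total gene signal mmu-miR-17_v17.0 had a change of 1.93.

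The miRNAs outside the cluster and its paralogs whose profile over the 6 arrays lay nearest to that of the guide arms were found by the root mean square distance between centred log2 signals. They were miR-26a-5p at 0.07, miR-125a-5p at 0.07, miR-101b-3p_v20.0 at 0.09, miR-24-3p at 0.09 and let-7c-5p at 0.10, against a median of 0.30 over 108 miRNAs compared. The 5 guide arms themselves lay at 0.05 to 0.08 from their own mean profile, as did the 4 tested paralogs, at 0.06 each. The separately named mmu-miR-17_v17.0 and mmu-miR-106a_v17.0, which were not among the 108, lay further off, at 0.19 and 0.17. The points share 6 arrays and their scaling, so the distances are a description of these arrays. For let-7c-5p, a tumour-suppressor miRNA, the log2 signals were 8.58, 9.17 and 8.77 in 2D and 8.45, 8.72 and 8.64 in lr-ECM 3D culture, with 2D replicate 2 again the highest.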

How the data were processed

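MiRNA levels were measured in LLC1 cells on 6 Agilent arrays (3 per culture condition; 100 ng of total RNA, Cy3). The deposited scanner files hold linear spot intensities, extracted by the authors in Feature Extraction 10.7.3.1 with subtraction of background, and, per the file headers, other columns with outlier and detection flags. The deposited table holds log2 values by the authors, which equalled the log2 intensities plus a constant per array (largest departure 0.0487; column means 1.79, medians -0.04 to 0.82).

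Control and outlier spots were left out, spots of a probe were averaged, and each array was multiplied (factors 0.447 to 4.43) so that its mean over 1712 miRNA probes equalled that of the 2D arrays. A floor of 1 preceded the log2. The probe with the highest mean represented a miRNA. A probe was well above background where at least 50% of its spots were flagged so; miRNAs so on all 3 arrays of a group entered the fit of limma 3.58.1 (R 4.3.3; Benjamini-Hochberg; call: adjusted p under 0.05, at least 2-fold). Permutation tests used scipy 1.17.1. The fits were also run on simulated data with independent errors and no uneven array, which tests the code and not these arrays. The number of arrays limits precision. Replicate numbers were not treated as pairing the samples, since the labels do not state a pairing.

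Named were all arms taken by name as members, a fixed list of paralogs and the 5 miRNAs nearest in profile. The members and lists were chosen with earlier results of these data known. Alternatives covered the scaling, background correction, floor, filter, probe summary, detection rule, deposited values, variance model, test, replicate block and each array left out. The count of mmu-miR-17_v17.0 as a guide arm was added after seeing the data.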

Additional observations from a re-analysis of the deposited data

How the results depend on the processing

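The number of arms called stayed at 0 under every alternative except quantile normalization, where it was 1, miR-17-3p, with a log2 change of -1.43. Over all tested miRNAs, the 14 calls became 25 with the 75th percentile of all probes, 27 without scaling, 26 with the total gene signal, 27 with the deposited log2 values, 32 with no filter and 0 when only the 48 miRNAs above background on all arrays were tested; leaving out 1 array at a time gave 12 to 32, the highest without 2D replicate 2. The count was 16 (all higher) with the 75th percentile of detected probes, 21 with quantile normalization and 11 with normexp.

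The median log2 change of the guide arms, -0.16, was 0.15 with the 75th percentile of detected probes, 1.19 without scaling, 0.084 with quantile normalization, 0.67 with normexp, 0.035 with the total gene signal and 0.68 with the deposited values. It was -0.14 with mmu-miR-17_v17.0 counted, and -0.24 to -0.03 with 1 array left out. The range of the guide-arm changes, 0.18, was 0.38 with the total gene signal and 0.15 to 0.26 with 1 array left out. The difference in arms above background was 0 to 0.5 with 1 array left out. The cause of these shifts was not tested.

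Changes of sign were as follows, in the order miR-18a-5p, miR-19a-3p, miR-19b-3p, miR-20a-5p and miR-92a-3p. With the 75th percentile of detected probes the changes were 0.28, 0.29, 0.11, 0.13 and 0.15. Without scaling they were 1.32, 1.33, 1.15, 1.17 and 1.19, and 0.44 for miR-17-3p. With normexp they were 0.55, 0.58, 0.69, 0.69 and 0.67, and with the deposited values 0.82, 0.83, 0.64, 0.66 and 0.68. With the 75th percentile of all probes miR-18a-5p was at 0.11 and miR-19a-3p at 0.12. With quantile normalization miR-19a-3p was at 0.0059, miR-19b-3p at 0.14, miR-20a-5p at 0.084 and miR-92a-3p at 0.11. With the total gene signal miR-18a-5p was at 0.36, miR-19a-3p at 0.15, miR-20a-5p at 0.0033 and miR-92a-3p at 0.035. With 1 array left out, miR-18a-5p ran from -0.069 (without 2D replicate 3) to 0.017 (without 2D replicate 2), and miR-19a-3p from -0.090 (without 2D replicate 1) to 0.054 (without 2D replicate 2). Both were above 0 without lr-ECM 3D replicate 1 as well.

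Same-numbered 2D and lr-ECM 3D arrays had correlations of their deviations of -0.32, -0.37 and 0.16 over 120 miRNAs. Differently numbered arrays had correlations of -0.32 to 0.35. With 3 arrays per group the deviations are not independent, so these values cannot show whether the cultures were set up in pairs. The samples were treated as unpaired. With the replicate block 12 miRNAs and 0 arms of the cluster were called. The signal over background of 2D replicate 2 limits what can be said of the dimmer arms.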
